A study of Drosophila melanogaster with 4 samples.

Results

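Dimethylation of lysine 4 of histone H3 (H3K4me2) was examined in the parts of the Drosophila melanogaster genome that lie in or next to heterochromatin. These are chromosome 4, the 2 Mb nearest the centromere on the assembled arms 2L, 3L, X and 3R, and the separate heterochromatic sequences 2LHet, 3LHet, 3RHet, XHet and YHet. Distances from the centromere are counted from the centromeric end of the assembled arm, not from the centromere itself. Enriched regions were assigned to them by position alone, without use of any measured value. Of the 5383 regions in the authors' combined list, 327 lay there and 3928 lay on the rest of 2L, 3L, 3R and X. Arm 2R was not included, and the remaining regions lay on sequences outside this comparison. The 327 comprised 58 regions on chromosome 4, 106 on proximal 3R, 54 on proximal 2L, 43 on proximal X, 28 on proximal 3L and 38 on the Het sequences.

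The chromatin came from wild-type embryos of the Oregon-R strain aged 14 to 16 h, late in embryogenesis. Chromatin immunoprecipitation and sequencing (ChIP-seq) with an antibody to H3K4me2 gave 2 ChIP libraries, and 2 further libraries were of input DNA without antibody. All 4 share strain, genotype and age, and whole embryos mix all cell types. The data were 3 lists of enriched regions on FlyBase release 5, namely 1 for each ChIP replicate and the combined one, and each region carries a score set by the authors on a scale that was not stated. The read depth behind the lists is unknown. The labels leave unsaid if the replicates are independent collections of embryos, so their spread may be only technical.

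H3K4me2 marks promoters and enhancers of genes that are active or poised. Pericentric heterochromatin is rich in repeats, is packaged with methylated lysine 9 of histone H3 and the protein HP1, and silences many genes placed into it. It nevertheless holds genes of its own, among them light (lt), concertina (cta) and RpL5 on 2L, su(f) on X, neverland (nvd) on 3L, and the male fertility genes kl-2, kl-3 and kl-5 on the Y. Chromosome 4 is small and carries heterochromatin proteins over most of its length, yet its genes are transcribed, and they include the developmental regulators ci, ey, toy, pan, zfh2 and sv. The tandemly repeated histone genes lie on proximal 2L. Regions are described by position and were not assigned to genes, because the gene table at hand is on another release of the genome. Where sequence copies are nearly identical, the copy from which reads came is uncertain, and the share of each sequence to which reads can be aligned is unknown.

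Chromosome 4 carried almost as many enriched regions for its length as the rest of the arms, but they scored lower. It had 39.2 regions per Mb in replicate 1 and 38.5 in replicate 2, against 41.2 on the rest of 2L, 3L, 3R and X in both lists, a ratio of 0.943 ± 0.013 (SD over the 2 lists, as for all ± values that follow). These regions covered 12.5% and 11.8% of chromosome 4, against 15.5% and 14.9% of the rest. The ratio of 0.802 ± 0.011 was further from 1 than its spread over lists, which does not measure variation along the chromosome. Windows of 250 kb on chromosome 4 ranged between 6.90% and 18.4%. The regions of chromosome 4 were narrower, with median widths of 2747 bp (replicate 1) and 2615.5 bp (replicate 2), and the rest had 3170 bp and 3100 bp. When only the upper 50% of scores in each list was counted, the ratio of covered shares was 0.300.

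The lower scores of chromosome 4 were most apparent at the top of the range. A combined score above 2 was reached by 2 of its 58 regions, against 33.3% of the regions on the rest of the arms. In the replicate lists, 6 of 53 and 0 of 52 regions of chromosome 4 scored above 2, against 45.1% and 29.8% of the rest. Scores below 0.75 were about as frequent on chromosome 4, at 13.2% and 19.2%, as on the rest, at 17.1% and 20.0%. The difference in medians, chromosome 4 minus the rest, was -0.390 in replicate 1 and -0.395 in replicate 2. Against regions of the same width on the rest of the arms, the median difference was -0.272 ± 0.0044, and 38 of 53 and 38 of 52 regions lay below. The difference thus remained among regions of equal width and was larger than the spread between lists.

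**Figure D1:**
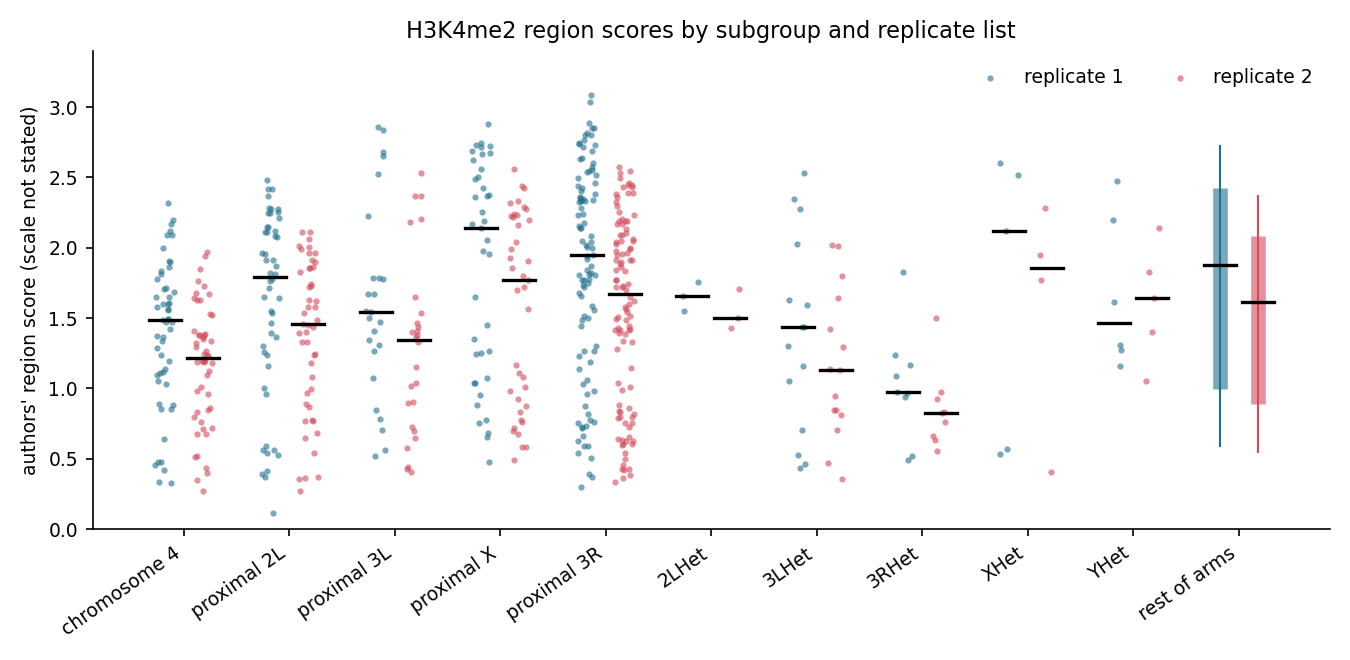
Authors' region score (vertical axis, scale not stated) of each region in replicate 1 and replicate 2, by subgroup, with black bars at the medians; for the rest of 2L, 3L, 3R and X, thick bars span the quartiles and thin bars the 10th to 90th percentile. Chromosome 4 reaches at most 2.32 and 1.97, proximal X 2.88 and 2.56, and proximal 3R 3.09 and 2.57, against 3.78 and 3.17 on the rest of the arms (beyond the bars drawn).

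The highest-scoring region of chromosome 4 spanned 2816 bp, from 806067 to 808882. Its scores were 2.32 (replicate 1) and 1.97 (replicate 2), and it ranked 1457 of the 5383 regions of the combined list. The region from 462645 to 465219 scored 2.20 and 1.94. The third by score, from 1045284 to 1055414, was also the widest at 10131 bp and scored 2.17 and 1.85. It was the only region of the 58 on the chromosome to exceed 8 kb, against 4.68% of the regions on the rest of the arms. The next widest, 7960 bp from 521784 to 529743, scored 1.24 and 0.957 and was split into 2 regions in replicate 1. Width and score thus did not go together for this domain.

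H3K4me2 was listed along the whole chromosome 4, with denser and sparser stretches. In successive windows of 250 kb from its left end, regions covered 13.7%, 9.30%, 18.4%, 6.90% and 14.1% (means of the 2 lists), and 8.35% of the last 101.9 kb. The window from 750001 to 1000000, the least covered, had a median combined score of 0.707, the lowest of the 6 windows. The longest stretch without a region in the combined list, 95.3 kb, ran from 232785 to 328104. Both replicate lists left it empty apart from 42 bp in replicate 1. Regions followed each other at a median gap of 11.2 kb on chromosome 4, against 6.61 kb on the rest of the arms, and 19.3% of gaps were under 2 kb, against 23.7%.

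The 2 ends of the chromosome differed. Nearest the left end, the region from 61960 to 66787 had scores of 1.78 (replicate 1) and 1.38 (replicate 2). The last region on the right, from 1317851 to 1318957, was listed in the combined list alone, with a score of 1.08. Its neighbour from 1311615 to 1313656 was called in replicate 1 alone, at 1.56. The combined score of that neighbour was 0.957.

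**Figure D2:**
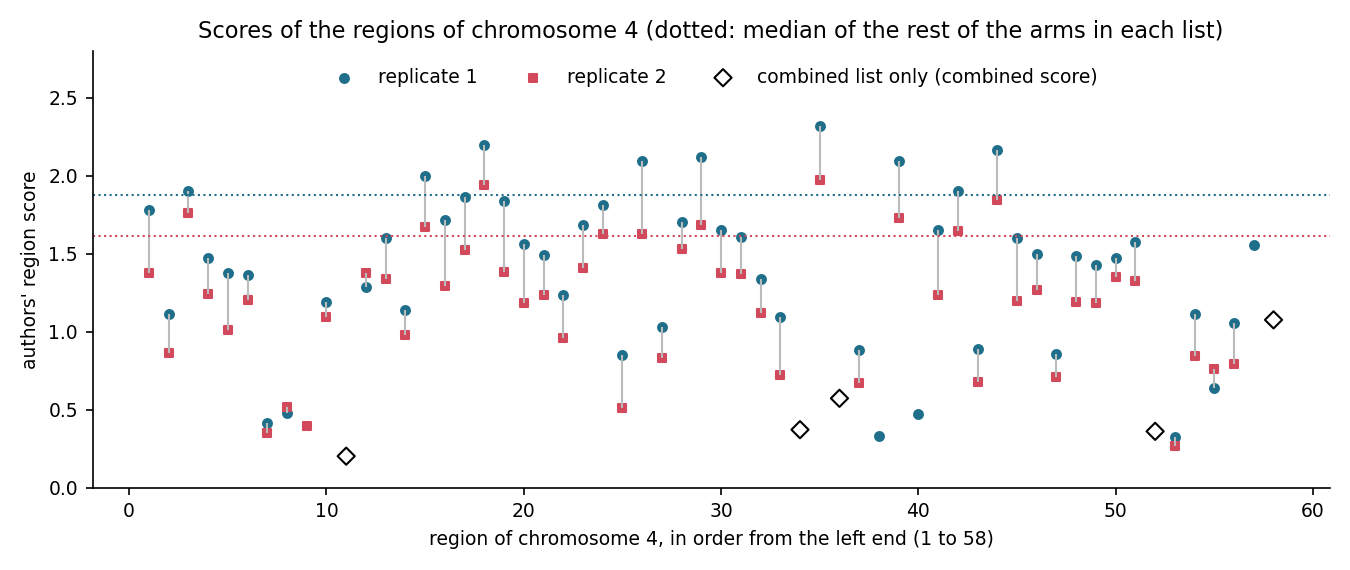
Authors' score (vertical axis) of the 58 regions of chromosome 4 in order from the left end (horizontal axis), in replicate 1 and replicate 2, with diamonds for the 5 regions of the combined list that neither replicate holds and dotted lines at the median of the rest of the arms in each list. The highest pair of points is 2.32 and 1.97, and low scores occur near both ends and in the middle.

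Set against the number of genes, chromosome 4 was densely marked. It carries 80 protein-coding genes in the RefSeq table (assembly Release 6 plus ISO1 MT), and had 65.6 ± 0.88 regions per 100 genes. The chromosomes 2L, 3L, 3R and X, with their Het sequences, had 35.9 ± 0.039 regions per 100 of their 10991 genes. Single arms ranged between 32.2 ± 0.16 on 2L and 40.7 ± 0.19 on X. The genes were counted on a later release than the regions, no region was tied to a gene, and 1 gene may have several promoters.

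Proximal 2L, 3L and X were covered less than the remainder of their own arms, by amounts that differed between the arms. On proximal 3L, regions covered 3.83% in replicate 1 and 3.72% in replicate 2, against 15.5% and 15.1% of the rest of 3L, a ratio of 0.246 ± 0.0013. The share on proximal X was 6.76% and 6.39%, against 16.5% and 15.7% of the rest of X, a ratio of 0.408 ± 0.0015. Proximal 2L had 8.97% and 8.35% covered, against 14.3% and 13.8% of the rest of 2L, a ratio of 0.616 ± 0.015. The 3 ratios differed from each other and from 1 by more than the SD over lists. That SD does not measure how much coverage varies from stretch to stretch along an arm. Together the 3 windows had a ratio of 0.417 ± 0.0063 to the rest of 2L, 3L, 3R and X.

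Scores did not follow the coverage. Proximal X, although sparsely covered, had a median score of 2.14 and 1.77, against 1.97 and 1.72 on the rest of X. The difference of 0.115 ± 0.085 was little more than its spread. A combined score above 2 was reached by 19 of 43 regions on proximal X (44.2%), against 33.3% on the rest of 2L, 3L, 3R and X. Against regions of the same width on the rest of the arms, those of proximal X were higher by a median of 0.156 ± 0.038, with 13 of 39 below in each list. Proximal 3L, in contrast, had a median of 1.54 and 1.35, against 1.85 and 1.56 on the rest of 3L, a difference of -0.258 ± 0.067. Proximal 2L had 1.79 and 1.46, a difference of -0.0682 and -0.143 from the rest of 2L, on average -0.106 ± 0.053. Scores above 2 in the combined list were found for 5 of 28 regions on proximal 3L (17.9%) and 12 of 54 on proximal 2L (22.2%), against the same 33.3%.

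Coverage changed along the proximal windows differently on each arm. On 3L the 4 steps of 250 kb nearest the centromere were covered to 1.01%, 0.860%, 1.24% and 2.73%, and the next 4 to 2.12%, 6.33%, 8.25% and 7.66% (means of the 2 lists). The low values thus extended past the first Mb, and 3L first exceeded 10% in the step that begins 2250 kb from the end. On 2L the steps had 4.45%, 3.48%, 5.45%, 12.6%, 2.76%, 12.1%, 8.85% and 19.7%, with a well covered step on either side of a poor one. On X they had 4.99%, 4.03%, 9.99%, 5.29%, 17.3%, 4.21%, 5.23% and 1.53%, so the lowest step of proximal X was the one farthest from the centromere.

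**Figure D3:**
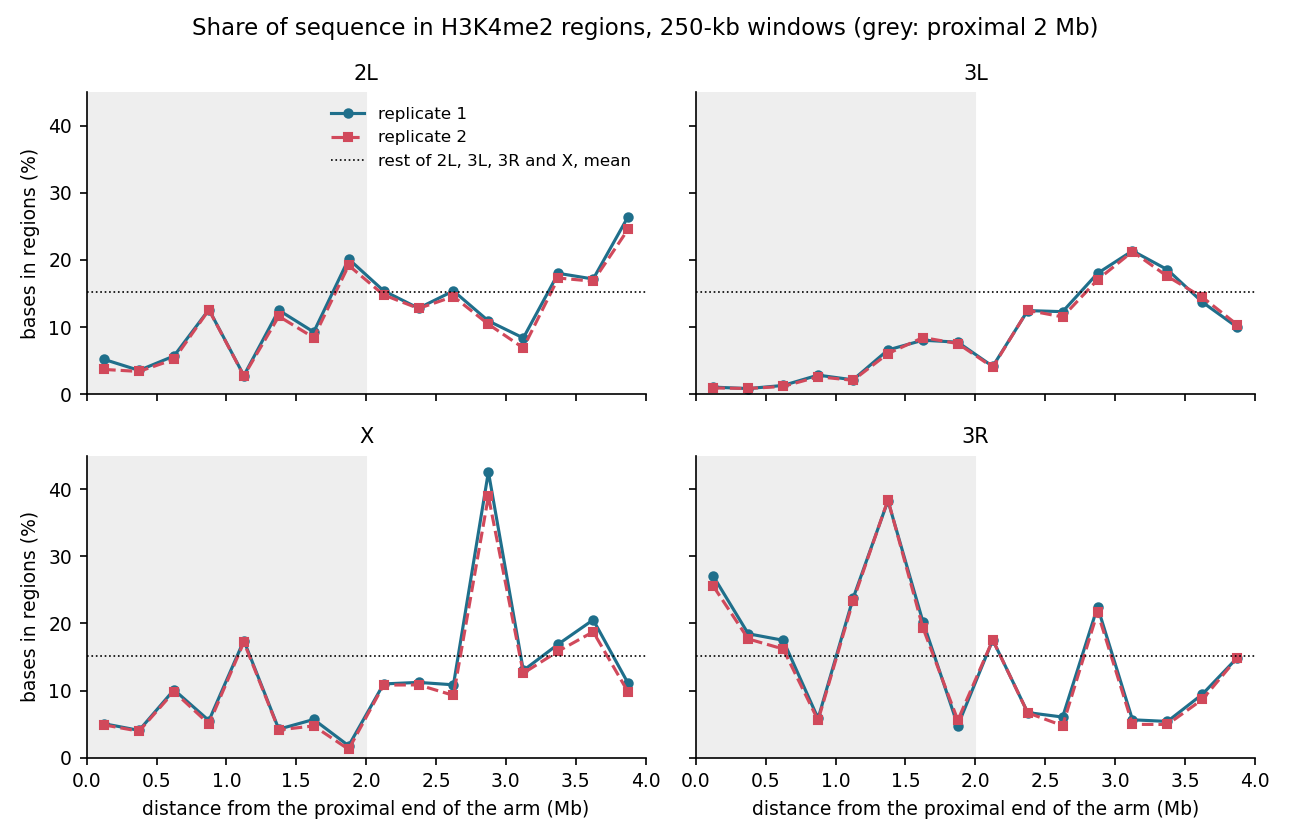
Share of bases in H3K4me2 regions (vertical axis, percent) in windows of 250 kb, by distance from the proximal end of each arm (horizontal axis, Mb), for replicate 1 and replicate 2, with the proximal 2 Mb in grey and the mean of the rest of 2L, 3L, 3R and X dotted. The 3L windows begin near 1%, while 3R begins at 26.3% and reaches 38.3% within the grey area.

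On proximal 3L the marked sequence was concentrated at the distal side. Its highest-scoring regions were 22869218 to 22874080, with 2.84 in replicate 1 and 2.53 in replicate 2, then 22732658 to 22736785 with 2.86 and 2.37, and 22708585 to 22712467 with 2.68 and 2.37. The widest, 7432 bp from 22859675 to 22867106, was split into 2 regions in replicate 1, the higher at 2.66, and scored 2.20 in replicate 2. All 4 lay in the 2 steps farthest from the centromere. The longest stretch without a region, 301.1 kb from 24226100 to 24527186, held none in either replicate. Beyond it, the region nearest the centromeric end, from 24530000 to 24532552, was present in both lists at 1.41 and 1.02. Gaps over 50 kb made up 33.3% of the gaps on proximal 3L, against 10.7% on the rest of the arms.

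On proximal X, a strong region lay close to the centromeric end of the assembled arm. It ran from 22413344 to 22417043 and had scores of 2.62 (replicate 1) and 2.24 (replicate 2). The 3 of highest score lay farther out. They were 21218465 to 21224146, with 2.88 and 2.56, then 21256569 to 21261468 with 2.74 and 2.33, and 20920643 to 20928691, the widest at 8049 bp, with 2.72 and 2.42. Regions of proximal X were grouped, with a median gap of 4.54 kb although 23.8% of gaps exceeded 50 kb. On the rest of the arms the median gap was 6.61 kb. The longest stretch of proximal X without a region in the combined list, 343.9 kb, ran from 21501804 to 21845698.

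Proximal 2L had its strongest regions away from the centromere. The highest score belonged to 21177804 to 21181683, with 2.48 in replicate 1 and 2.11 in replicate 2. It was followed by 21161343 to 21171067, the widest at 9725 bp, with 2.42 and 2.11, and by 21755467 to 21759948 with 2.42 and 1.97. The region nearest the centromeric end, from 22967775 to 22969479, was called in replicate 1 alone, at 0.111, and had the lowest score of all 5383 regions of the combined list, 0.011. The longest stretch without a region was 182.2 kb, from 21836278 to 22018519.

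A row of evenly spaced regions was found on proximal 2L. Between 21458315 and 21481143, 5 consecutive regions of the combined list began 5044 bp apart on average, with an SD of 126 bp over the 4 steps. Of these, 4 were called in each replicate list, where the steps averaged 5046 bp with an SD of 13.3 bp in replicate 1 and 5042 bp with an SD of 14.6 bp in replicate 2. Over all 930 runs of 5 regions with a mean step of at most 10 kb on these sequences and the rest of 2L, 3L, 3R and X, the coefficient of variation of the steps had a median of 50.4%. In this row it was 2.49%, the lowest of the 930. The second lowest was a run on the rest of 3R, and the third lowest, 7.09%, lay on proximal X from 21474434 to 21501803. There the 5 regions began 6091 bp apart on average, with an SD of 432 bp, were called in both replicates and had combined scores between 1.68 and 2.11.

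**Figure D4:**
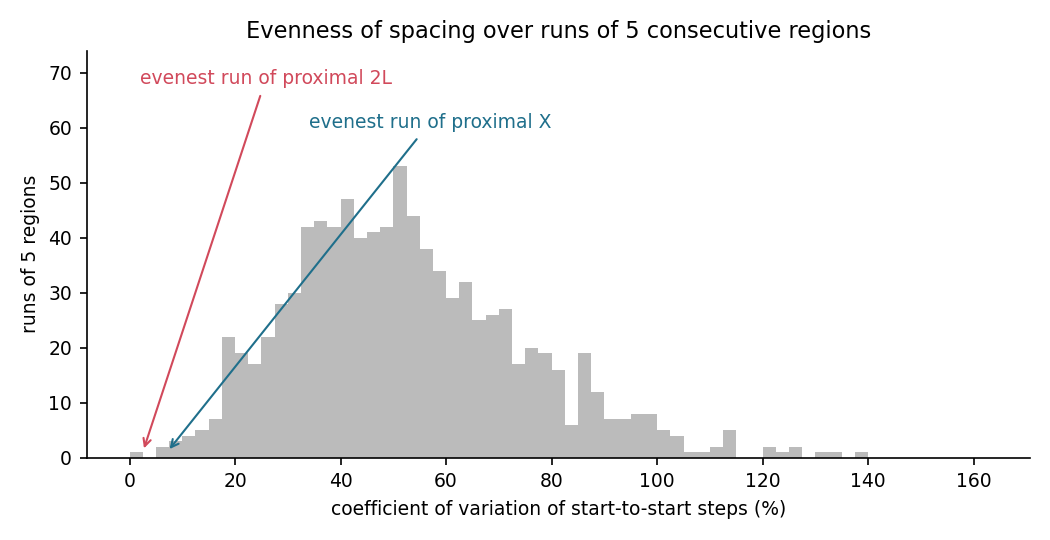
Number of runs of 5 consecutive regions (vertical axis) by the coefficient of variation of their start-to-start steps (horizontal axis, percent), over 930 runs with a mean step of at most 10 kb. The evenest run, on proximal 2L, has 2.49%, and the evenest on proximal X has 7.09%, against a median of 50.4%.

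The evenly spaced regions of 2L also differed between the replicates more than most regions did. In replicate 1 the 4 scored 2.08, 2.21, 2.08 and 1.81 from the centromere-distal side, and in replicate 2 they scored 1.24, 1.46, 0.993 and 0.886. Replicate 1 had the higher score in all 4, as it did in 3016 of the 3304 regions matched singly on the rest of the arms. The differences of the 4 were larger than the general one, which had a median of 0.267 over all 4519 regions matched singly. By distance from that median, the 4 ranked 15, 52, 4 and 8. Within the 83.4 kb from 21458315 to 21541674 the combined list had 3 regions besides these 4, with scores of 1.59, 1.49 and 1.64. The first of the 3 is the remaining region of the evenly spaced row. Neither replicate list held any of the 3. The next region, which starts at 21572736, scored 1.87 and 1.54, a difference close to the general one. The RefSeq table places 112 genes whose symbols begin with His1, His2, His3 or His4 on 2L, but whether any of these regions lies in them was not tested.

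A few regions with a combined score above 1 were absent from both replicate lists. Of the 327 regions, 288 (88.1%, Wilson 95% interval 84.1 to 91.2, counting error only) overlapped a region of both replicates, against 88.8% on the rest of the arms. By subgroup the numbers were 49 of 58 on chromosome 4, 47 of 54 on proximal 2L, 23 of 28 on proximal 3L, 39 of 43 on proximal X, 95 of 106 on proximal 3R and 35 of 38 on the Het sequences. The share over all of them was close to that of the rest, which lies within its interval. In neither list were 23 of the 327 regions (7.03%), against 5.24% of the rest of the arms. Of the 23, 14 were narrower than any replicate region, which was not counted for the rest. However, 5 of the 327 (1.53%) were in neither list and had a combined score above 1, against 0.0509% of the rest, which is 2 of 3928. Besides the 3 on proximal 2L and the last region of chromosome 4, this was the region on 3L from 23663584 to 23665570, with a score of 1.27.

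Most regions kept the general relation between the replicates. Among 270 singly matched regions of these sequences the median excess of replicate 1 was 0.269, against 0.270 on the rest of the arms. Replicate 2 had the higher score in 24 of the 270 (8.89%), against 8.72% on the rest. Scores more than 0.5 apart were found in 21 (7.78%), against 7.23%. These shares are close to those of the rest. Of the 21, 9 lay on proximal 3R, 5 on proximal 2L, 2 each on proximal X, 3LHet and YHet, and 1 on XHet. The SD of the difference over regions was 0.436 on YHet and 0.245 on proximal 2L, against 0.135 on chromosome 4 and 0.179 on the rest.

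**Figure D5:**
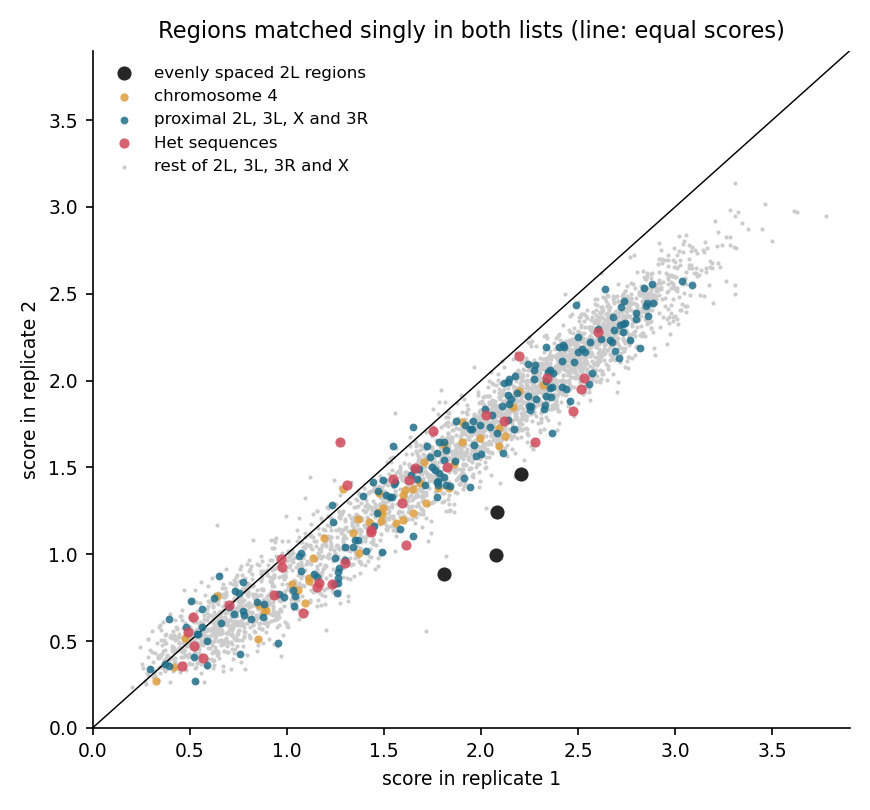
Score in replicate 2 (vertical axis) against score in replicate 1 (horizontal axis) for regions matched singly in both lists, with the evenly spaced 2L regions, chromosome 4, the other proximal regions and the Het sequences over the rest of 2L, 3L, 3R and X in grey, and a line at equal scores. The 4 evenly spaced 2L regions lie below the band, and the YHet region with 1.27 and 1.64 lies above it.

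Proximal 3R went the other way from the other proximal windows. It was covered to 19.5% in replicate 1 and 19.0% in replicate 2, against 15.5% and 14.9% of the rest of 3R, a ratio of 1.26 ± 0.0089. It held 49.5 and 53.0 regions per Mb, against 41.2 in each list on the rest of 2L, 3L, 3R and X. Starting at the centromeric end of the assembled arm, its steps of 250 kb had 26.3%, 18.1%, 16.9%, 5.72%, 23.5%, 38.3%, 19.8% and 5.20% covered. The step nearest that end was thus above the 15.2% ± 0.39 of the rest of 2L, 3L, 3R and X. On 3L, the other arm of the same chromosome, the step nearest the end had 1.01%. The region nearest the centromeric end, from 5 to 3946, was present in both lists at 1.66 and 1.49.

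The scores of proximal 3R were close to those of the rest of the arms. The median was 1.95 in replicate 1 and 1.67 in replicate 2, against 1.88 and 1.61, a difference of 0.0646 ± 0.0066. Against regions of the same width it was -0.0102 ± 0.012, and within 1 Mb of the end, in place of 2 Mb, it was -0.0593, so no direction is given. A combined score above 2 was reached by 40 of 106 regions (37.7%), near the 33.3% of the rest of the arms. The highest were 1566250 to 1570324, with 3.04 and 2.57, then 1306828 to 1310487 with 3.09 and 2.55, and 1298627 to 1302199 with 2.89 and 2.45. The first 2 ranked 100 and 108 in the combined list, above every other region of the sequences described here, and the third ranked 270.

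Broad domains were about as frequent on proximal 3R as on the rest of the arms. Regions over 8 kb in the combined list numbered 5 of 106 on proximal 3R, a share close to the 4.68% on the rest of the arms. Proximal 2L had 2 of 54, chromosome 4 had 1 of 58 and proximal X had 1 of 43. The widest, 12351 bp from 252830 to 265180, scored 2.39 in replicate 1. In replicate 2 it was split into 2 regions, and the higher of these scored 2.39. It lay in the second step from the centromere. The other wide one, 11377 bp from 1387724 to 1399100, scored 2.60 and 2.30. Gaps over 50 kb were 5.71% of the gaps on proximal 3R, against 10.7% on the rest of the arms, and the longest stretch without a region was 151.6 kb, from 312646 to 464249.

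The Het sequences had few regions, and these were short. They had 6.34 regions per Mb in replicate 1 and 6.01 in replicate 2, against 41.2 on the rest of the arms in both, and 1.69% and 1.58% of bases covered, a ratio to the rest of 0.108 ± 0.0023. Their median width was 2484.5 bp and 2385 bp, against 3170 bp and 3100 bp on the rest. On 2LHet alone it was 3241 bp and 3393 bp, above the rest. The median score of the Het sequences together differed from the rest by -0.571 and -0.480. Against regions of the same width the sign turned, with a median difference of 0.0669 ± 0.095, which is less than its spread. The single sequences differed in this measure, from -0.29 ± 0.12 on 2LHet to 0.613 ± 0.056 on YHet. Whether width accounts for the lower scores of the Het sequences together was not tested. A combined score above 2 was reached by 6 of 38 (15.8%), against 33.3% on the rest of the arms.

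The regions of YHet, the heterochromatic sequence of the Y chromosome, stood out among the Het sequences. All 6 lay between 300214 and 344620, next to the high-coordinate end, and the first 300.2 kb held none in any list. The first, from 300214 to 302835, had scores of 2.19 (replicate 1) and 2.14 (replicate 2), and its neighbour from 304453 to 307467 had 2.48 and 1.82. The third by combined score, from 327091 to 329329, had 1.27 in replicate 1 but 1.64 in replicate 2, against the general direction. It ranked 11 of 4519 by departure from the median difference. The remaining 3 scored 1.31, 1.62 and 1.16 in replicate 1. In replicate 2 the first of these had 1.40, the next 1.05, and the last was not called. Replicate 2 was thus the higher in 2 of 5 matched regions of YHet.

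YHet regions were high for their width. They were 1.61 to 3.02 kb wide in the combined list, and their median width in the replicate lists, 2181 bp and 2142 bp, was below that of the rest of the arms. Against regions of the same width they were higher by a median of 0.613 ± 0.056. In replicate 1, 0 of 6 lay below the median of their width, and in replicate 2, 0 of 5. These numbers are small, the regions are near neighbours, and the Y is present only in male embryos, whose share in the collections is not known.

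XHet, like proximal X, was little covered and had a median score above that of the rest of the arms. The medians were 2.12 in replicate 1 and 1.86 in replicate 2, against 1.88 and 1.61. They rest on only 5 and 4 regions. Scores above 2 made up 60% and 25% of these, against 45.1% and 29.8% of the rest. Scores below 0.75 made up 40% and 25%, against 17.1% and 20.0%. The 5 regions of XHet lay between 50056 and 86493 and covered 6.96% in replicate 1 and 6.15% in replicate 2. The strongest, from 59648 to 63277, scored 2.60 and 2.28, the highest of all Het sequences. Those from 83939 to 86493 and from 73600 to 78607 scored 2.51 and 1.95, and 2.12 and 1.77. The other 2, nearer the low-coordinate end, scored 0.568 and 0.537 in replicate 1, and of these replicate 2 held the first at 0.404.

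On the Het sequences of 2L, 3L and 3R, regions were far apart. The 15 regions of 3LHet had a median gap of 68.5 kb, and the longest empty stretch was 683.7 kb, from 710804 to 1394458. Its strongest regions, 700995 to 703720 with 2.53 in replicate 1 and 2.01 in replicate 2 and 708052 to 710803 with 2.34 and 2.02, lay next to each other at the edge of that stretch. The region from 592336 to 596666 scored 2.28 and 1.65, the largest departure from the general difference on 3LHet. Its width was 2897 bp (replicate 1) and 4128 bp (replicate 2), so the lists cut different stretches there.

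Median scores were lowest on 3RHet among the sequences described, but not beyond the spread at equal width, where the median difference from the rest of the arms was -0.0342 ± 0.18. Its 9 regions had medians of 0.973 in replicate 1 and 0.828 in replicate 2, and only 1 of them exceeded 1.50 in replicate 1, from 1806038 to 1809152, with 1.83 and 1.50. They left 1061.7 kb empty between 642598 and 1704346, apart from 1 bp in replicate 1. All 9 were nonetheless called in both replicates. The 3 regions of 2LHet were as reproducible, with 1.75 and 1.71 from 30350 to 33751, 1.66 and 1.50 from 167050 to 171696, and 1.55 and 1.43 from 33923 to 36666.

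The borders of the proximal windows were set at 2 Mb from the end of each arm. The last step of 250 kb inside and the first outside were covered to 19.7% and 15.1% on 2L, 7.66% and 4.09% on 3L, 1.53% and 10.9% on X, and 5.20% and 17.6% on 3R. The outermost region inside the window and the first outside it had combined scores of 1.39 and 0.426 on 2L, 0.671 and 0.297 on 3L, 0.718 and 2.23 on X, and 1.36 and 0.767 on 3R.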

How the data were processed

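ChIP and input libraries of H3K4me2 were made by the submitters, who deposited 3 lists of enriched regions in GFF version 3. The inputs have no list of their own. Per the file headers, positions are those of FlyBase release 5. The deposited score of each region is the authors' own value. Not given in the sources used here are its scale and normalization, the aligner, region caller, threshold, depth and the way replicates were combined.

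The members and comparisons were chosen with earlier results of these data known. Even spacing, own-arm, same-width (bins of 500 bp) and gene count comparisons came after the data were seen. Regions were matched by at least 1 bp, and a single match overlaps exactly 1 region each way. Positions are 1-based, and 1 start of 0 was taken as 1. Per subgroup, a rule picked the 3 highest-scoring regions, the 2 widest and the one nearest the centromeric end (for chromosome 4, each end). It also picked the longest empty stretch and the single match that departs most from the median replicate difference. Not all of these are described above. Others were named after their values were seen. With 1 group and 2 lists, no test was run, and differences are read against the SD over lists. Gene counts came from RefSeq, Release 6 plus ISO1 MT. Interval counting was tested on simulated data. Python 3.11.15, numpy 2.4.6, pandas 2.3.3, scipy 1.17.1 and matplotlib 3.10.9 were used.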

Additional observations from a re-analysis of the deposited data

How the results depend on the processing

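Of 26 alternatives for the ratio of covered shares to the rest of the arms, 11 moved it by more than the SD over lists and 0 turned it to the other side of 1. With the upper 50% of scores it was 0.300 on chromosome 4, 0.355 on proximal 2L, 3L and X, 1.26 on proximal 3R and 0.0543 on the Het sequences. Counted as regions per Mb, it was 0.943, 0.459, 1.24 and 0.15 in the same order. The combined list gave 0.424 for proximal 2L, 3L and X. Windows of 1 Mb gave 0.308 there and 1.10 on proximal 3R.

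Of 22 alternatives for the difference in median score, 7 moved it and 3 reversed it. The combined list gave -0.311 on chromosome 4 and -0.362 on the Het sequences. Regions of the same width gave -0.272 on chromosome 4, -0.0627 on proximal 2L, 3L and X, and reversed values of -0.0102 on proximal 3R (0.0646 before) and 0.0669 on the Het sequences (-0.525 before). Regions matched one to one gave -0.413 on chromosome 4, 0.0193 on proximal 3R and -0.451 on the Het sequences. Windows of 1 Mb reversed proximal 3R, at -0.0593. The causes of these shifts were not tested.

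The share of regions in both lists was 100%, 96.4%, 100% and 100% among the upper 50% of scores on chromosome 4, proximal 2L, 3L and X, proximal 3R and the Het sequences. An alternative added after the data were seen left out all 7 regions of 2L from 21458315 to 21541674, not only the evenly spaced ones. The share was then 89.0% on proximal 2L, 3L and X (87.2% with them). Each list alone lies within the SD by construction. No paired analysis was possible because the inputs have no list. Depth is unknown, so weak regions missing from a list cannot be told from absent ones.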
